A study of Mus musculus with 7 samples.

Results

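Complement receptors, regulators and components were followed across splenic B cell isolates of wild-type mice and of mice that overexpress the microRNA miR-155. The set holds 9 genes: the receptor Cr2, the membrane regulators Cr1l, Cd55 and Cd59a, the C1q chains C1qa, C1qb and C1qc, the central component C3, and Cfp, which encodes properdin. Members were taken as the probe sets that the platform annotation assigns to 1 of these genes alone, which gave 16 of the 45101 probe sets on the array, for 8 of the 18193 genes measured. No probe set was assigned to C3 alone, so C3 was not analysed here. A further probe set, 1427632_x_at, names both Cd55 and its neighbour Cd55b; it lay between 2.17 and 2.48 on the 7 arrays and was not used.

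The wild-type group (WT) held 4 FVB mice and the transgenic group (TG) 3 FVB mice carrying miR-155 behind the Eµ enhancer. That enhancer belongs to the immunoglobulin heavy chain locus and drives expression in the B lineage. Ages, sexes and the founder line are not in the labels. By the sex-linked genes Xist and Eif2s3y, wild-type replicates 3 and 4 read as male and all other arrays as female. Sex is thus partly confounded with genotype. B cells were taken from spleens with a magnetic isolation kit, so an array reads every cell the isolate still held, and a shift in the mix of cells cannot be told apart from a shift in RNA per cell. Levels are given in log2 units of the deposited GCRMA values, where 1 unit is a doubling and 2.17 is the lowest value. A value at or under 4 is treated as not above background. Any probe set that exceeded 4 on 3 or more of the 7 arrays was tested with limma, and p-values were adjusted over all 20994 such probe sets by the Benjamini-Hochberg method, with a threshold of 0.05. Of the 16 member probe sets 10, for 5 genes, met that filter; the other 6, which are all those of the C1q chains and 1 of Cd59a, did not.

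The complement system is a cascade of plasma proteins that marks microbes, immune complexes and dying cells. C1q, built of A, B and C chains, starts the classical pathway on bound antibody, and properdin stabilises the alternative pathway convertase. Both routes cleave C3, whose fragments stay attached to their target. On B cells, complement receptor 2, made in the mouse from Cr2 together with complement receptor 1, binds C3 fragments and works in a coreceptor complex with CD81, which lowers the threshold for antigen. Marginal zone B cells are known for high levels of it. Host membranes are protected by DAF (Cd55), which speeds the decay of convertases, by Crry (Cr1l), a mouse cofactor for cleavage of C3 fragments, and by CD59 (Cd59a), which blocks the terminal pore.

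The microRNA that separates the groups is shown with its seed, bases 2 to 8, in capitals, because the seed is the part that pairs with target messages. The sequence is that of RefSeq on build GRCm38.p6 (chr16:84714143-84714165, plus strand).
mmu-miR-155-5p: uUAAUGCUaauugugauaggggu
No transcript sequences were used here, so seed matches in the members' messages were not searched.

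The members expressed by B cells lay lower in the transgenic arrays, and 1 of the probe sets passed the test. All 7 probe sets of Cr2, Cd55 and Cr1l had a negative difference, from -1.29 for Cd55 to -0.10 for Cr1l, and 1430131_at of Cr1l passed. Among the 10 tested member probe sets 1 was lower, 0 were higher and 9 did not pass, while 9.28% of all tested probe sets passed (3.65% as lower, 5.63% as higher). The count of 1 in 10 is thus close to the share of all tested probe sets. In 6 of the 10 all transgenic arrays lay below all wild-type arrays, against 13.3% of all tested probe sets. The 6 are those of Cr2 and Cd55, 1 of Cr1l and 1 of Cfp, and they also had an unadjusted p under 0.05, as 29.7% of all tested probe sets did. The median difference of the 10 was -0.44, and that of all tested probe sets -0.04. The members were chosen with earlier results of these data known, and the Cd55 probe sets share their RNA. These counts are therefore no independent support.

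Among Cr2, Cr1l, Cd55 and Cd59a, Cd55 had the largest differences, and its 3 probe sets gave nearly the same one. With 1460242_at the wild-type arrays read 13.02, 12.87, 12.86 and 13.02 and the transgenic arrays 12.02, 12.19 and 10.77. Every transgenic array was below every wild-type array, and transgenic replicate 3 was lowest by more than 1 unit. The means were 12.94 ± 0.09 (SD, n = 4) and 11.66 ± 0.77 (SD, n = 3), a difference of -1.28 ± 0.33 (SE; 95% interval -2.07 to -0.50), or 2.43-fold lower, with a limma adjusted p of 0.0587. With 1418762_at wild type read 12.84, 12.93, 12.61 and 13.13, and the transgenic arrays 11.99, 12.05 and 10.87. That difference was -1.24 ± 0.30 (SE, limma adjusted p = 0.0512), the closest of the 3 to the threshold. The dimmer 1443906_at read 11.41, 11.20, 11.24 and 11.35 in wild type and 10.58, 10.59 and 8.84 in transgenic arrays, a difference of -1.29 ± 0.43 (SE, limma adjusted p = 0.105). Transgenic replicate 3 was thus lowest with all 3 probe sets, which share their RNA and are no replicates of each other.

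Both the size and the spread of these differences depended on transgenic replicate 3. Without it the Cd55 differences shrank to -0.84, -0.86 and -0.71, and all 3 probe sets passed (limma adjusted p = 0.00843, 0.0301 and 0.00944). With any other array left out none of the 3 passed, and the differences lay between -1.59 and -1.15. Without transgenic replicate 3 the 2 remaining transgenic arrays were assumed to vary like the wild-type group. The dim Cd55b, the second mouse DAF gene, was above 4 on 2 wild-type arrays and no transgenic one; it read 3.97, 4.02, 3.66 and 4.37 against 3.66, 2.76 and 2.43 and was not tested.

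Cr2 was lower by a smaller amount. Its probe set 1425289_a_at read 14.00, 14.18, 14.08 and 14.07 in wild type and 13.77, 13.75 and 13.10 in transgenic arrays. The groups did not overlap, and transgenic replicate 3 was again lowest. Wild type averaged 14.08 ± 0.07 (SD, n = 4) and the transgenic group 13.54 ± 0.38 (SD, n = 3), a difference of -0.54 ± 0.17 (SE; 95% interval -0.94 to -0.15, limma adjusted p = 0.0896). Without transgenic replicate 3 the difference was -0.32 and passed (limma adjusted p = 0.0305).

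Within each array Cd55 (1460242_at) stood lower against Cr2 in the transgenic group. The Cd55 value minus the Cr2 value was -0.98, -1.31, -1.22 and -1.05 in wild type and -1.75, -1.55 and -2.32 in transgenic arrays, a group difference of -0.74. In an exact two-sided permutation test over the 35 splits of the arrays p was 0.0286, the smallest possible, and 0.0286 when adjusted over 3 such within-array comparisons. The 3 comparisons, this one and those within Cr1l and within Cfp below, were chosen after the values were seen. Their p-values are therefore no independent support.

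Cr1l gave unlike answers by probe set. The one that passed, 1430131_at, read 8.88, 8.87, 8.91 and 9.10 in wild type and 8.53, 8.59 and 8.25 in transgenic arrays. Cr1l fell by this probe set: the wild-type mean was 8.94 ± 0.11 (SD, n = 4) and the transgenic mean 8.45 ± 0.18 (SD, n = 3). The change was -0.49 ± 0.10 (SE; 95% interval -0.73 to -0.24, limma adjusted p = 0.0381), or 1.40-fold. The call was lost when any of the 7 arrays was left out (adjusted p = 0.0516 to 0.0922). The brighter 1422563_at read 10.92 to 11.13 in wild type against 10.95, 10.95 and 10.88. Its groups overlapped, and the difference was -0.10 ± 0.06 (SE; 95% interval -0.25 to 0.04, limma adjusted p = 0.292). The third, 1438920_x_at, lay near background, at 4.31 to 5.09 in wild type and 3.73 to 4.49 in transgenic arrays (difference -0.40, adjusted p = 0.329). The first probe set minus the second was between -2.16 and -2.03 in wild type and between -2.63 and -2.37 in transgenic arrays. The group difference was -0.38 (exact permutation p = 0.0286, adjusted 0.0286, two-sided), for a pair chosen after the values were seen. Which Cr1l transcripts each probe set reads is not in the annotation used.

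**Figure D1:**
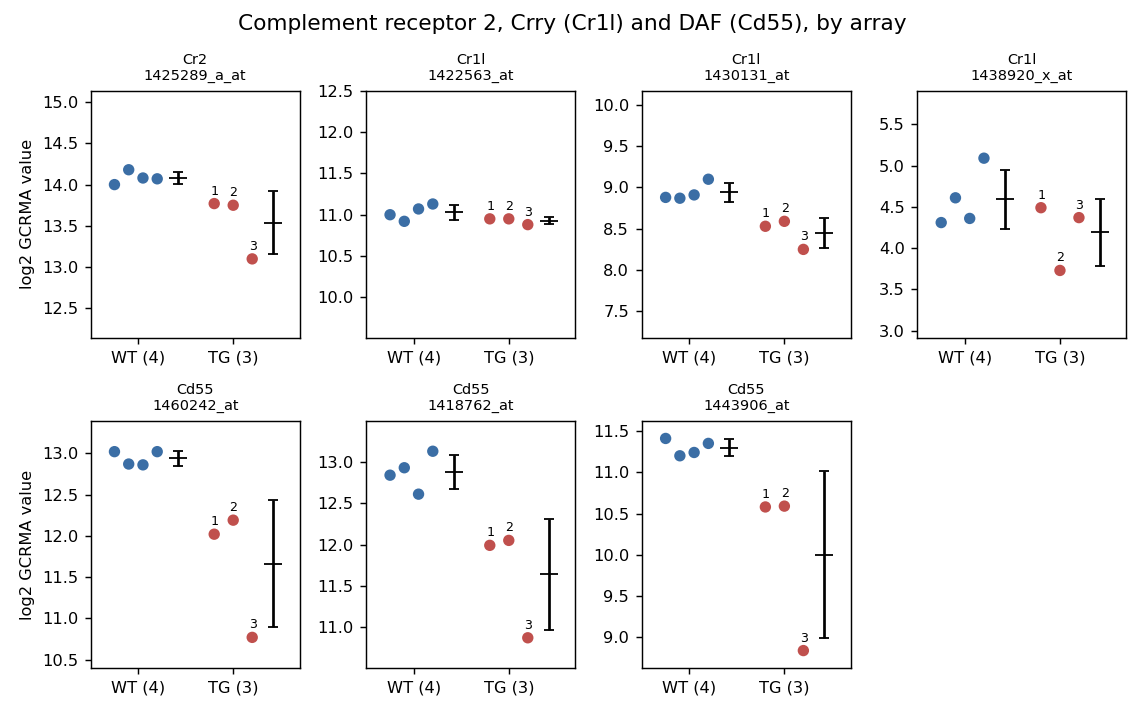
Log2 GCRMA value (y axis, a separate range in each panel) of each Cr2, Cr1l and Cd55 probe set on the 4 wild-type (WT, blue) and 3 transgenic (TG, red, numbered by replicate) arrays, with bars for mean ± SD. The transgenic points lie below all wild-type points for Cr2, all 3 Cd55 probe sets and 1430131_at of Cr1l, with replicate 3 lowest in each of these panels.

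The promoters of these 3 genes, all on chromosome 1, are shown because the genes had differences of one sign. Cr1l and Cr2 are direct neighbours in the RefSeq table of GRCm38.p6, and Cd55 lies beside Cd55b elsewhere on the chromosome. Each window runs from 250 bases before to 50 after the RefSeq start on GRCm38.p6, a C57BL/6J and not an FVB reference. Capitals mark E-boxes (CANNTG, the same on both strands), the letters bound by E proteins and related factors.
Cr2, chr1:195176670-195176969, minus strand: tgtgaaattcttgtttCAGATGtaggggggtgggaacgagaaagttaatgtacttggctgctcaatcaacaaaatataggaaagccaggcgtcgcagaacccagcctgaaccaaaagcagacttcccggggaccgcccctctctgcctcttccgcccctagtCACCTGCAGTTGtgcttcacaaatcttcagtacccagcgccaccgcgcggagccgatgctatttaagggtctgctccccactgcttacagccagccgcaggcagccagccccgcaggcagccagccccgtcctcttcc
Cr1l, chr1:195131521-195131820, minus strand: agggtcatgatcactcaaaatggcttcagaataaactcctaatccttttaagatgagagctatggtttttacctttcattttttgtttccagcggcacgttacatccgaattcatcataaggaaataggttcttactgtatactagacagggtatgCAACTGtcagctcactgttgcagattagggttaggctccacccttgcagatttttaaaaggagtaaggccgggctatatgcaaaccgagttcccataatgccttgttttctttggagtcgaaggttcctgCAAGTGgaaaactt
Cd55, chr1:130462695-130462994, minus strand: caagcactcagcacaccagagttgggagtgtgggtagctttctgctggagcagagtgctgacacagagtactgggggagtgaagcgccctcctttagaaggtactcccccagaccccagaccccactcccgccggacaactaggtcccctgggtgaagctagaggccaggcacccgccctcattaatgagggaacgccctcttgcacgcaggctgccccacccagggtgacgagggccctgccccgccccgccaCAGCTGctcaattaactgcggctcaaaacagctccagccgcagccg
Cr2 holds 3 E-boxes, of which the pair at -88 and -82 from the start stand end to end. Cr1l holds 2 and Cd55 holds 1, which begins at base 5 after the start. An E-box occurs in 72.3% of 32851 RefSeq promoter windows of this length, so its presence does not set the 3 genes apart. The GC content of the windows was 57.3% for Cr2, 41.3% for Cr1l and 63.3% for Cd55, against a median of 52.7%. Of the 9 members 8 had a promoter entry, and the windows of Cd59a, C1qb, C1qc and C3 also held an E-box, while that of Cfp held none. A match describes letters and shows no binding.

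The C1q genes, which macrophages and dendritic cells are known to make, were seen on 1 array. C1qa read 2.17 on all 4 wild-type arrays and on transgenic replicates 1 and 2, and 5.97 on transgenic replicate 3. For C1qb, 1434366_x_at read 3.35 on those 6 arrays and 5.72 on transgenic replicate 3, and 1417063_at read 2.17 and 4.04. The third C1qb probe set and the C1qc probe set were at 2.17 on the 6 arrays and at 3.18 and 3.87, not above background, on transgenic replicate 3. All 5 probe sets of the 3 chains were thus highest on the same array and flat on the rest. With 1 array above background per group at most, none met the filter. The C1q genes are direct neighbours on chromosome 4, in the order C1qb, C1qc, C1qa.

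The summed level of the macrophage markers was also highest on that array, though not that of every marker. Of 15 macrophage markers 9 were above background on transgenic replicate 3, 7 on replicate 2, 5 on replicate 1 and 3 to 5 on the wild-type arrays. The sum of their log2 values was 50.6 to 57.2 in wild type and 56.8, 62.7 and 77.3 on transgenic replicates 1, 2 and 3. Axl and Cd5l, which clear dying cells and mark tissue macrophages, were at 6.07 and 5.44 on transgenic replicate 3 and at 2.17 on the other 6 arrays, the pattern of C1qa. Marco, Siglec1 and Cd163, markers of marginal zone and other resident macrophages, were at 2.17 on all 7 arrays. Mertk, Mrc1 and Fcgr1 were not above background on any array. In the tested genes 1 of 5 macrophage markers passed as higher (Cd68, 2.63) and 1 as lower (Spic, -0.99), a factor that B cells also express. The Cd68 call was lost without transgenic replicate 2 or any wild-type array but replicate 4 (limma adjusted p = 0.0668 to 0.0922), and the Spic call without transgenic replicate 2 (0.0745). The part of these cells in the C1q values was not tested.

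Properdin was measured by 2 probe sets that differed. With 1452279_at Cfp read 7.94, 8.08, 8.35 and 8.35 in wild type and 8.28, 8.99 and 11.17 in transgenic arrays. Transgenic replicate 1 lay within the wild-type range and replicate 3 more than 2 units above every other array. The difference was 1.30 ± 0.64 (SE; 95% interval -0.23 to 2.82, limma adjusted p = 0.224), and 0.45 without transgenic replicate 3 (adjusted p = 0.274). The other, 1447537_at, read 7.62, 7.67, 7.93 and 7.75 against 7.49, 7.43 and 7.59, with every transgenic array lower. That difference was -0.24 ± 0.09 (SE, limma adjusted p = 0.138), and with the arrays scaled to their B cell markers it was 0.04. In wild type the first minus the second lay between 0.32 and 0.60, and in transgenic replicates 1, 2 and 3 it was 0.79, 1.55 and 3.58. This pair too was chosen after the values were seen (exact permutation p = 0.0286, adjusted 0.0286, two-sided).

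Monocytes and granulocytes are known to make properdin, and the summed levels of their markers were higher on the transgenic arrays. The summed log2 values of 6 monocyte markers were 19.1 to 34.0 in wild type and 35.8, 38.8 and 42.1 on transgenic replicates 1, 2 and 3, with 1 to 3 of the 6 above background in wild type and 4 on each transgenic array. Those of 10 granulocyte markers were 27.1 to 35.4 in wild type and 88.1, 75.7 and 83.5, with 1 to 3 of 10 above background against 9, 7 and 7. The monocyte sum was highest on transgenic replicate 3, as 1452279_at of Cfp was. The granulocyte sum was highest on replicate 1, where that probe set lay within the wild-type range. Of the monocyte markers, Ccr2 and F13a1 were higher on every transgenic array. By their brightest probe sets Csf1r and Lyz2 overlapped between the groups, and Cx3cr1 and Cd14 were not above background on any array. Cfp lies on chromosome X. Xist, which marks female cells, read 2.22 on wild-type replicate 3 and 2.81 on replicate 4, against 13.61 to 13.93 on the other 5 arrays. Eif2s3y, which marks male cells, read 9.85 and 11.10 on those 2 arrays and 2.17 on the other 5. Those 2 arrays are also where Cfp read highest among the wild type with both probe sets. The part of either in the Cfp values was not tested.

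Cd59a was at or near background. Its brighter probe set 1418710_at read 4.38, 4.42, 4.40 and 4.40 in wild type and 4.40, 4.40 and 4.94 in transgenic arrays, with only 4 distinct values on 7 arrays. The difference was 0.18 ± 0.14 (SE; 95% interval -0.15 to 0.51, limma adjusted p = 0.408), and -0.06 after quantile normalization. The second probe set read 2.32 to 2.35 on 6 arrays and 4.06 on transgenic replicate 3. Both thus read highest on transgenic replicate 3, as the C1q probe sets did.

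**Figure D2:**
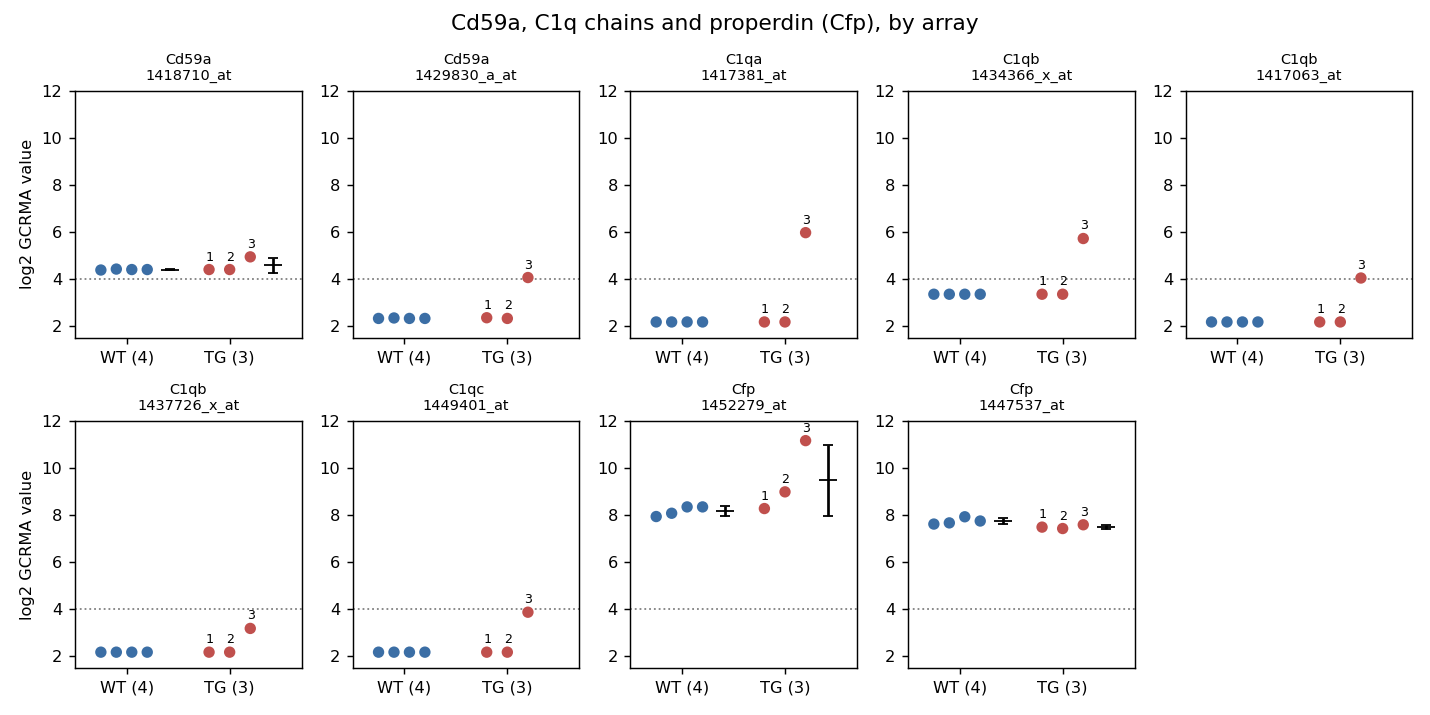
Log2 GCRMA value (y axis) of the Cd59a, C1q chain and Cfp probe sets on the 4 wild-type (WT, blue) and 3 transgenic (TG, red, numbered by replicate) arrays; the dotted line at 4 is the background level, and bars give mean ± SD for tested probe sets. For all probe sets but 1447537_at of Cfp, transgenic replicate 3 is the highest point, at 5.97 for C1qa and 11.17 for 1452279_at of Cfp.

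By their brightest probe sets, B cell identity genes also had negative differences, smaller than those of Cd55. Of 5 tested B cell markers (Cd79a, Cd79b, Ms4a1, Pax5 and Cd22), each read by its brightest probe set, 0 passed in limma. An unadjusted p under 0.05 was found for 3, against 30.9% of all tested genes. All 5 had a negative difference, and their median was -0.27. Dimmer probe sets of Pax5, the B lineage factor, and Cd22, an inhibitory receptor, passed as lower (-1.03 and -0.41, limma adjusted p = 0.0469 and 0.0484). Without transgenic replicate 3 that Pax5 probe set differed by -0.72, within the range of the Cd55 probe sets there (-0.86 to -0.71). The summed log2 values of the 5 markers were 68.0 to 68.6 in wild type and 67.4, 67.6 and 65.6 on transgenic replicates 1, 2 and 3, and all 5 were above background on every array. Set against the mean of these 5 genes on the same array, Cd55 (1460242_at) stood at -0.87 to -0.62 in wild type and at -1.47, -1.34 and -2.36 in transgenic arrays, a difference of -1.01. For Cr2 the same quantity was 0.35 to 0.58 in wild type and 0.29, 0.22 and -0.03, a difference of -0.27. With all arrays scaled in this way, a choice made after the data were seen, 2 Cd55 probe sets passed (limma adjusted p = 0.0293 and 0.0292), Cr2 did not (0.114) and the Cr1l call was lost (-0.21, adjusted p = 0.166). The scaling moved the median of all tested genes by 0.28 and the calls among them from 772 higher and 244 lower to 1740 and 56.

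Markers of the B cell subsets that differ in Cr2 moved unevenly. Fcer2a, encoding CD23 of follicular B cells, fell by 0.82 (limma adjusted p = 0.0451), and Cxcr5, their follicle homing receptor, differed by -0.24 (adjusted p = 0.402). The other Fcer2a probe set differed by -0.98 (adjusted p = 0.0512), and the Fcer2a call was lost without any 1 wild-type array or transgenic replicate 2 (0.0808 to 0.109). Of 5 marginal zone markers 2 had an unadjusted p under 0.05 in limma, against 30.9% of all tested genes. Of those 5 markers 0 passed, with differences from -0.45 to 1.25. Their summed log2 values were 58.6 to 59.5 in wild type and 61.5, 61.4 and 58.1 in transgenic arrays, and those of the 2 follicular markers 26.2 to 26.7 and 25.9, 25.8 and 24.5. S1pr3, the sphingosine receptor of marginal zone B cells, was at 9.47 on transgenic replicate 3 and at 11.17 to 11.76 on the other arrays. Cd9, a tetraspanin, was instead highest on that array, at 11.65 against 9.10 to 10.84, and Cd1d1, which presents lipids, was at 12.70 there and at 11.89 to 12.65 in wild type. The 5 T cell markers summed to 15.5 to 15.9 in wild type, 17.7 and 19.2 on transgenic replicates 1 and 2, and 40.3 on replicate 3, with 1, 2, 2 and 5 of 5 above background in turn. Markers of follicular dendritic and stromal cells, which also carry complement receptors, summed to 21.5 to 22.2 and 22.0 to 24.5, with 2 of 7 above background on every array and Cxcl13 at 2.30 on all. Red cell precursor markers (6 genes) summed to 13.8 to 14.2 in wild type and to 24.4, 36.1 and 36.5 in transgenic replicates 1, 2 and 3. On the wild-type arrays 0 of the 6 were above background, against 3, 4 and 4. The 3 tested genes met the filter through the transgenic arrays alone, so the direction of their change was set by the filter. The part of these subsets and cells in the Cr2 and Cd55 values was not tested.

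**Figure D3:**
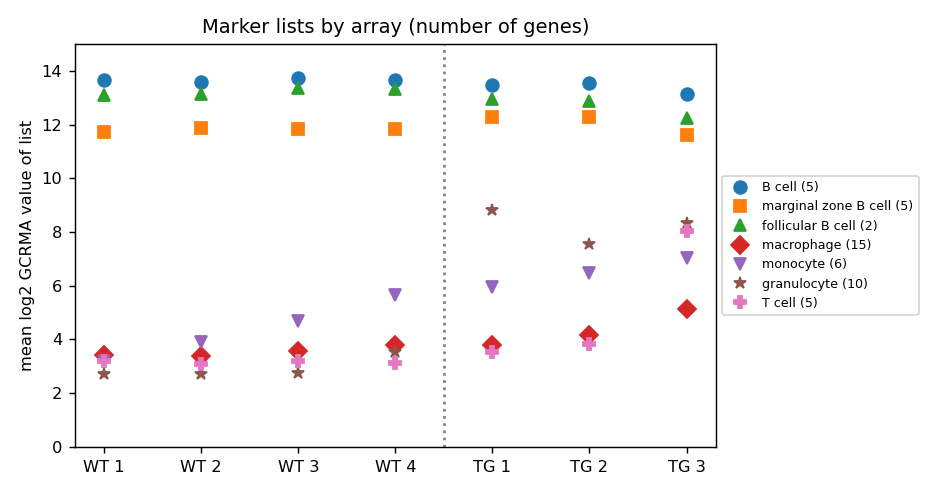
Mean log2 GCRMA value (y axis) of each marker list on each of the 7 arrays (x axis, WT wild type, TG transgenic), with the number of genes per list in the key. The B cell list stays between 13.13 and 13.73, while the macrophage list reaches 5.15 and the T cell list 8.05 on transgenic replicate 3.

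Other genes of the system were mostly not above background, and the 8 that were tested had positive differences. Of 54 other complement genes listed 43 had a probe set of their own and 8 were tested. Of the 8, 3 passed as higher, 0 as lower and 5 did not pass, where 8.11% of all 9517 tested genes passed as higher. In 7 of the 8 all transgenic arrays lay above all wild-type arrays (19.5% of all tested genes), and 7 had an unadjusted p under 0.05 (30.9%). The median difference of the 8 was 1.49 against 0.00 for all tested genes. The lists were chosen with earlier results of these data known, so these counts are no independent support. Of the 8, Ifitm1 met the filter through the transgenic arrays alone, so its sign and separation were set by the filter. Of the 35 not tested, 33 were at or under 4 on every array, among them all 12 measured genes of the classical and lectin pathways, the 1 of the alternative pathway (Cfb) and all 6 of the terminal pathway. C3ar1 and C5ar1, the anaphylatoxin receptors, were at 2.17 and 2.24 on all 7 arrays, and Vsig4, a macrophage receptor for C3 fragments, at 2.17.

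Of the 5 tested receptor genes 3 rose. Itgax, the alpha chain of complement receptor 4 and a dendritic cell marker, read 6.68, 5.49, 5.59 and 6.14 in wild type and 8.29, 9.01 and 10.58 in transgenic arrays, a rise of 3.32 (limma adjusted p = 0.0244). Cd93, once described as a C1q receptor and found on B cell precursors and myeloid cells, read 5.81 to 7.40 against 8.10, 8.77 and 10.23, a rise of 2.43 (adjusted p = 0.0493). Its next brightest probe set also differed by 2.43 but did not pass (limma adjusted p = 0.0502), and its remaining probe sets were not above background on any array. C1qbp, which binds C1q heads in vitro and resides in mitochondria, rose by 0.46 (adjusted p = 0.0249) and by 0.47 with its other probe set. Itgb2, the shared beta chain of complement receptors 3 and 4, and Calr, a chaperone that binds C1q, differed by 0.54 and 0.35 and did not pass (adjusted p = 0.0727 and 0.0653). All 3 calls were lost when transgenic replicate 2, or any wild-type array but replicate 1, was left out (adjusted p = 0.0618 to 0.127). Without transgenic replicate 3 the C1qbp and Cd93 calls were lost (0.0520 and 0.0794), and without wild-type replicate 1 that of Cd93 (0.108). The dendritic cell list, which holds Itgax, summed to 20.9 to 22.6 in wild type and 28.3, 31.3 and 35.7 on transgenic replicates 1, 2 and 3, with 3 of 5 genes above background against 4, 4 and 5, and its part in these rises was not tested.

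The regulator and coreceptor genes did not pass. Clu, encoding clusterin, an inhibitor of the terminal pore, read 5.31, 9.35, 8.57 and 8.87 in wild type and 10.38, 10.33 and 11.02 in transgenic arrays. Its difference was 2.55 (limma adjusted p = 0.137; 0.0653 to 0.0728 with its other 3 probe sets, all higher), and 1.65 without wild-type replicate 1, the low array, when it passed (adjusted p = 0.0482). Cd81, the tetraspanin of the Cr2 coreceptor, differed by 0.09 (95% interval -0.19 to 0.38, adjusted p = 0.614). Ifitm1, a small interferon-induced protein, was at 3.21 to 3.28 in wild type, not above background, and at 5.18, 5.26 and 8.64 in transgenic arrays (adjusted p = 0.0627). Without transgenic replicate 3 its difference was smaller, with a limma adjusted p of 0.000136. That value cannot serve as a test, since Ifitm1 then no longer meets the filter and its wild-type values are nearly tied.

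**Figure D4:**
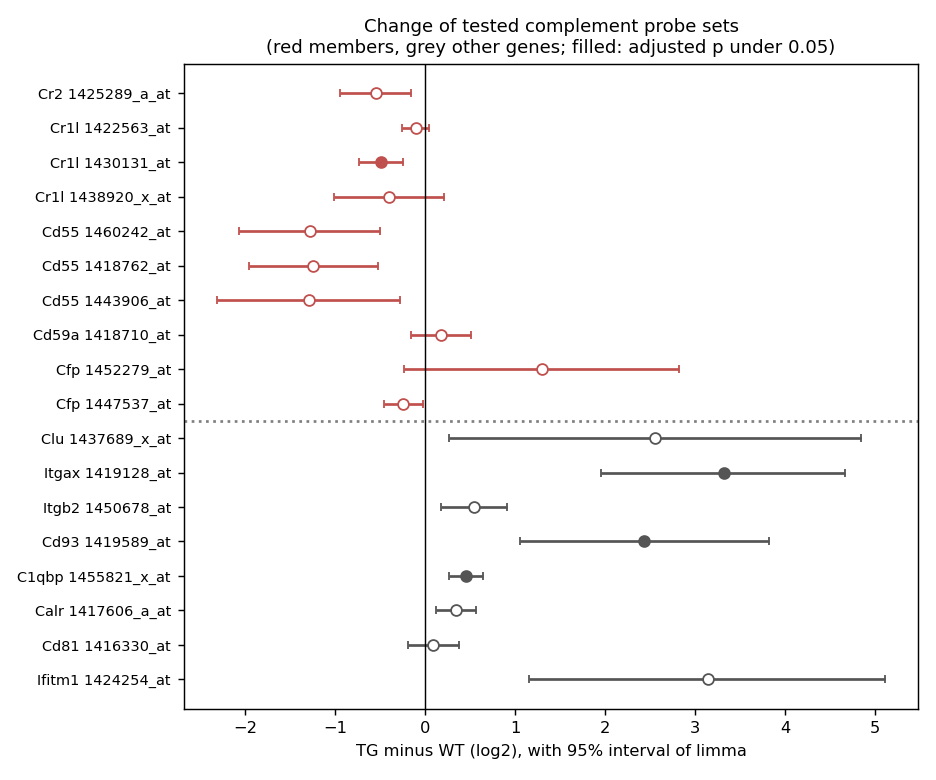
Difference between transgenic and wild-type means (x axis, log2) with limma's 95% interval for the 10 tested member probe sets (red, above the dotted line) and the 8 other tested complement genes (grey); filled points had an adjusted p under 0.05. The Cd55 intervals lie below 0 and span up to -2.31, while the points of all 8 other genes lie above 0.

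Genes with the most similar course over the 7 arrays were found by the root mean square difference of centred log2 values, a description with no test. For Cd55 these were Galnt10 (0.0668), Rph3al (0.184) and 4933426B08Rik (0.192), against a range of 2.25 units for Cd55 itself. Cr2 was nearest to Ghdc (0.0530), Prkcb (0.0635), which encodes protein kinase C beta of B cell receptor signalling, and Aff3 (0.0640). Cr1l, by its brightest probe set, was nearest to Washc2 (0.0246), Kat5 (0.0269) and Pink1 (0.0321). Cfp was nearest to Pik3cb (0.146), Cass4 (0.148) and Socs2 (0.213), and Cd59a to Pik3r3 (0.0167), Alg6 (0.0264) and Heatr5a (0.0379). Of these 15 genes Prkcb and 4933426B08Rik passed, with changes of -0.56 and -1.18 (limma adjusted p = 0.0442 and 0.0353).

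Leaving out arrays in turn showed which of them the member values rest on. The sign of the Cr2, Cd55 and passing Cr1l probe sets and of 1452279_at of Cfp was kept in each of these fits. The count of member probe sets that passed was 0 when any array but transgenic replicate 3 was left out and 4 without that array, namely those of Cd55 and Cr2. With wild-type replicates 3 and 4, the arrays low in Xist, both left out, the Cd55 differences were -1.28, -1.24 and -1.30 and that of Cr2 -0.55, and 0 member probe sets passed in limma, where 12 genes of 9517 did.

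**Figure D5:**
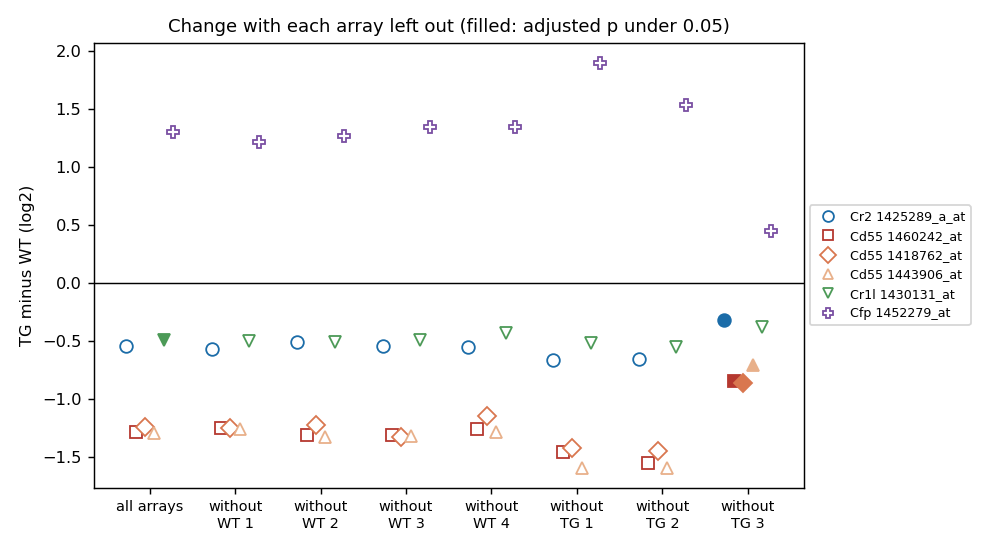
Difference between transgenic and wild-type means (y axis, log2) of 6 member probe sets with all arrays and with each array left out in turn (x axis); filled points had a limma adjusted p under 0.05. Without transgenic replicate 3 the Cd55 differences shrink to between -0.86 and -0.71 and that of 1452279_at of Cfp to 0.45.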

How the data were processed

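RNA of 7 splenic B cell isolates was hybridised to 1 Affymetrix array each, per the labels' protocols. Deposited values were in log2 units; the submitters' processing notes name GCRMA, version not given in the sources used here. That method corrects background from probe sequence, quantile normalizes and summarises probes, and leaves 35.6% to 37.1% of the values on each array at 2.17, which compresses dim differences. Scanner files and dates were not used here. The number of arrays limits precision. Each array was taken as 1 mouse, since the design counts mice. The p-values therefore set a difference between groups against the spread between these mice, as moderated by limma over all tested probe sets.

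After 64 control probe sets were left out, 34945 of 45101 named 1 gene. Symbols were looked up by Entrez identifier in RefSeq (GRCm38.p6), which changed 0. limma 3.58.1 in R 4.3.3 (lmFit, eBayes with trend, two-sided) was run on all 20994 probe sets above 4 on at least 3 arrays; a gene was its brightest probe set (9517 genes). The procedure was tested on simulated data. All member probe sets were named, with other complement genes up to 5 per list and 3 similar genes per member. The members and lists were chosen with earlier results of these data known. Alternatives changed the filter, scaling, variance model, weights, floor, probe set and covariate, blocked on replicate number, and left out arrays. Same-numbered arrays did not deviate together (r = -0.04, -0.14 and -0.29).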

Additional observations from a re-analysis of the deposited data

Results flagged for a closer look

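Among 21 groups of 4 wild-type arrays examined for the member and other complement probe sets, 3 held an array set apart from the other 3. Chance gives about 1 in 20 for values with normal scatter. That rate does not hold for values tied near background, so the count cannot be set against it. Wild-type replicate 2 read 2.34 for the dimmer Cd59a probe set, against 2.32 on the others, a gap that lies under background. Wild-type replicate 1 read 4.05 for Cd46, a membrane cofactor for cleavage of C3 fragments, against 3.95 to 3.96. Wild-type replicate 3 read 3.28 for Ifitm1, against 3.21 on the others.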

How the results depend on the processing

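The Cr2, Cd55 and Cr1l differences stayed negative in all alternatives except 1422563_at of Cr1l, at 0.17 with arrays scaled to B cell markers. That scaling also turned 1447537_at of Cfp to 0.04, and quantile normalization turned Cd59a to -0.06. From 1 with all arrays, the count of member probe sets passing was 0 with no filter, with the Xist covariate, without both wild-type arrays low in Xist and with the replicate number as a block. It was 2 with B cell marker scaling, 7 with array weights, and 3 with the stricter filter, quantile normalization, median centring, the robust variance model or without the pair of transgenic replicate 3 and wild-type replicate 4. With single arrays left out it ran from 0 to 4. The other complement genes passing, 3 in the reported fit, numbered 5 with quantile normalization, 6 with array weights, 7 with B cell marker scaling, 1 with that pair removed, 0 with no filter, the Xist covariate, the block or without both arrays low in Xist, and 0 to 4 with single arrays left out. Among all genes 1016 passed: 116 with no filter, 2763 with array weights, 3 with the block, 156 with the Xist covariate, 12 without both arrays low in Xist, 408 without the pair, 1796 with B cell marker scaling and 86 to 1073 with single arrays left out. The block also leaves out wild-type replicate 4. The 1 other complement gene passing without the pair was Ifitm1, which does not meet the filter once transgenic replicate 3 is left out. With no filter the C1q and dim Cd59a probe sets had an adjusted p of 0.703. The cause of these shifts was not tested. Signals near background limit Cd59a and the C1q genes.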
